A study of Mus musculus with 12 samples.

Results

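Socs1, Socs2, Socs3, Cish, Pim1, Pim3, Stat3, Stat5a, Osmr and Il6st are genes of cytokine receptor signalling and of its feedback, and their messenger RNA was followed in the mouse ileum after zinc in the drinking water, a glucocorticoid injection, both or neither. The 10 genes were taken by symbol from the 54838 genes with a deposited count, and all 10 were among the 15938 genes with enough reads to be tested. Cytokines of the interleukin-6 family bind receptor pairs that contain gp130, the product of Il6st, and the JAK kinases bound to these receptors phosphorylate STAT3, which then switches on genes in the nucleus. Among these genes are Socs3 and Pim1: SOCS proteins bind the receptors or the JAK kinases and end the signal, and Pim kinases are serine/threonine kinases that are active as soon as they are made, so that their amount is set largely by their messenger RNA. In the intestinal epithelium, STAT3 signalling is known for repair after damage and for the secretion of antimicrobial lectins.

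C57BL/6J mice drank normal water or water with 25 mM ZnSO4 for 7 days, were then injected with 200 µg of dexamethasone (Dex, a synthetic glucocorticoid that activates the glucocorticoid receptor) in PBS or with PBS alone, and were sampled 2 h after the injection. The 4 groups, water + PBS, ZnSO4 + PBS, water + Dex and ZnSO4 + Dex, held 3 libraries each. The mice were 8 to 14 weeks old. Each library was made from a washed piece of ileum with all its layers, so that fewer cells of a type and less RNA per cell cannot be told apart. The series describes the replicates of a group as biological, and p-values measure the spread between these libraries.

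Total counts lay between 10760132 and 11827487 per library. Mt1, a metallothionein gene induced by zinc, had 490.3 to 1376 normalised counts in the 6 libraries without ZnSO4 and 11971 to 27940 in the 6 with it, and Fkbp5, a target of the glucocorticoid receptor, had 949.9 to 1222 without Dex and 10263 to 12396 with it, so that every library followed its label. A normalised count is a count divided by the effective library size (TMM) and multiplied by the mean effective library size. The 6 epithelial markers together had 7434 to 11715 CPM (counts scaled to a common library size) and the 4 ileal enterocyte markers 7387 to 15588. The 6 T cell markers summed to 77.6 to 141 CPM in water + PBS, 36.7 to 79.5 in ZnSO4 + PBS, 73.4 to 96.9 in water + Dex and 40.1 to 42.4 in ZnSO4 + Dex. The 6 B cell markers summed to 27.6 to 533 CPM in water + PBS, 11.5 to 399 in ZnSO4 + PBS, 15.4 to 188 in water + Dex and 12.9 to 59.0 in ZnSO4 + Dex. Their median sums were 157, 80.3, 28.8 and 18.3 CPM in this order. The 4 neutrophil markers, S100a8, S100a9, Cxcr2 and Ly6g, never summed to more than 4.23 CPM, and in each group 1 to 3 of the 4 were at 0 in at least 1 library.

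The 10 genes did not move as 1 block. Socs3 and Socs1, the inhibitors closest to STAT3 and to interferon signalling, fell after ZnSO4 and after Dex given alone, Pim1 and Cish fell with Dex, Pim3 rose with Dex, Stat3 fell where ZnSO4 and Dex were combined, and Il6st, Osmr, Socs2 and Stat5a passed the test in no comparison. The test was edgeR's quasi-likelihood test over all 12 libraries and its p-values were adjusted (Benjamini-Hochberg) for the 15938 genes tested, and a gene is said to rise or fall when its adjusted p was under 0.05. By ZnSO4 in PBS mice, 2 of the 10 genes fell (Socs1 and Socs3) and none rose, while 2.54% of all tested genes fell and 2.11% rose. By Dex in water mice, 4 fell (Socs1, Socs3, Pim1 and Cish) and 1 rose (Pim3), against 4.51% and 5.41% of all tested genes. Both comparisons use the water + PBS libraries as their control, and their values are therefore set side by side without a count of shared calls.

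Within Dex-injected mice, ZnSO4 lowered 1 of the 10 genes (Stat3) and raised none, beside 2.54% of tested genes that fell and 1.83% that rose. Within ZnSO4 mice, Dex lowered 5 (Socs1, Socs3, Pim1, Cish and Stat3) and raised 1 (Pim3), beside 7.08% and 6.65% of tested genes. The number of genes whose 3 treated libraries all lay on one side of the 3 others was 4 for ZnSO4 in PBS mice (Socs1, Socs2, Socs3 and Stat3), 6 for Dex in water mice (the 5 called genes and Stat3), 2 for ZnSO4 in Dex mice (Socs3 and Stat3) and 9 for Dex in ZnSO4 mice (each gene except Il6st). Of all tested genes, 25.3%, 29.7%, 25.9% and 29.1% were separated in this way. The median log2 fold change (LFC) of the 10 genes was -0.34, -0.19, -0.05 and -0.30 in the order of these comparisons, and that of all tested genes lay within 0.02 of 0 in each.

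**Figure D1:**
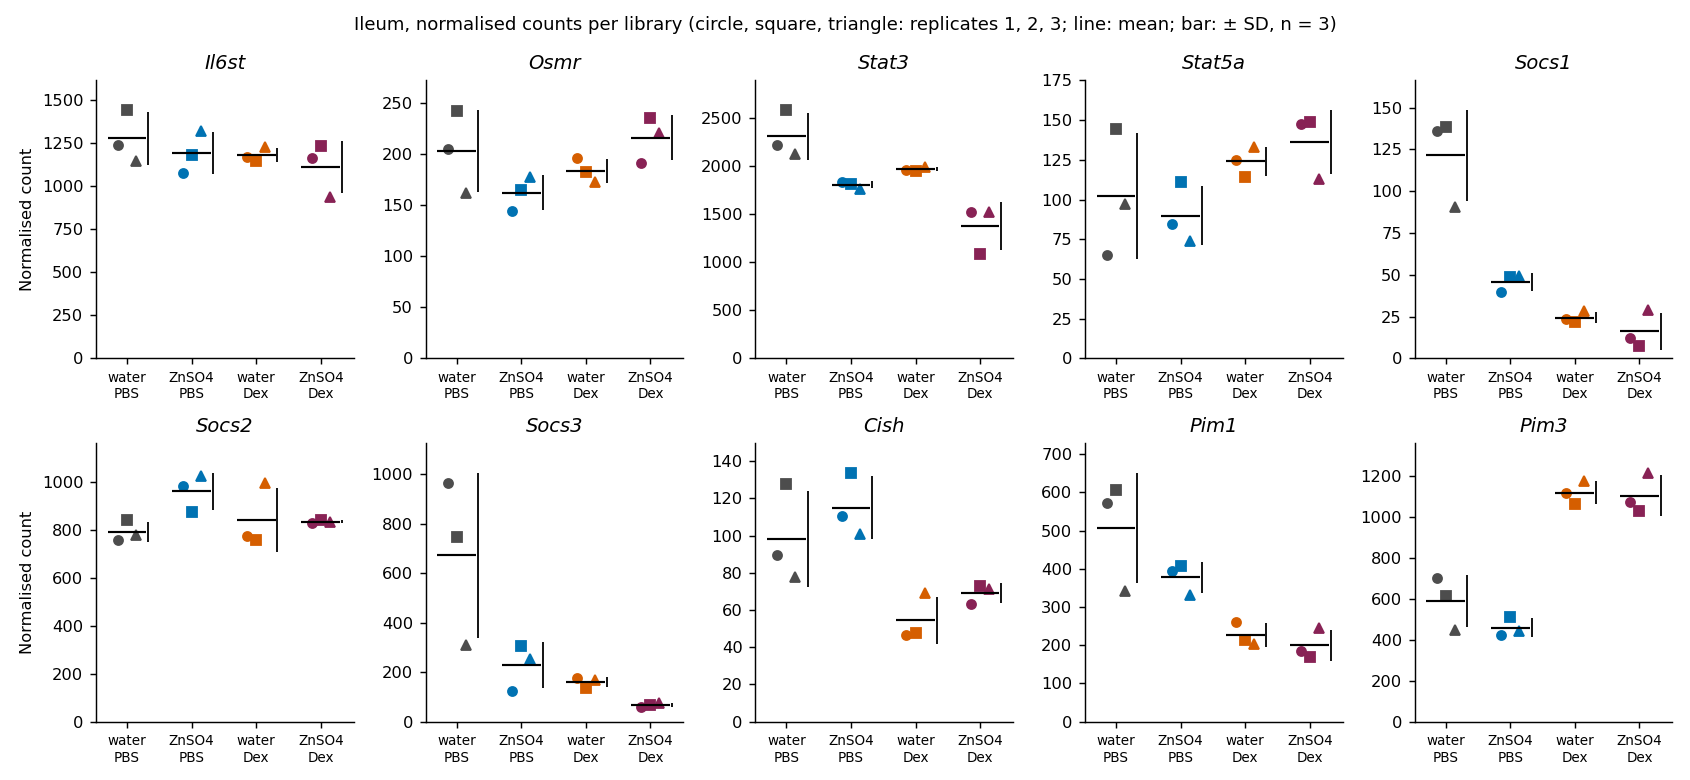
Normalised counts (vertical axes, from 0) of the 10 genes in the 12 ileum libraries, by group, with the mean as a line and the SD of 3 libraries as a bar. The means of Socs1 and Socs3 are highest in water + PBS and lowest in ZnSO4 + Dex, all 6 Dex libraries of Pim3 lie above its 6 PBS libraries, and Il6st lies between 937 and 1442 throughout.

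The receptor chains passed the test in no comparison. Il6st (chr13:112464070-112510086 in GRCm38, plus strand) encodes gp130, the chain shared by the receptors for interleukin-6, interleukin-11, leukaemia inhibitory factor and oncostatin M. It had 1239, 1442 and 1143 normalised counts in replicates 1, 2 and 3 of water + PBS, 1077, 1181 and 1317 in ZnSO4 + PBS, 1165, 1143 and 1222 in water + Dex and 1162, 1229 and 937 in ZnSO4 + Dex. All 4 groups overlapped. Its LFC was -0.10 for ZnSO4 in PBS mice (95% interval -0.35 to 0.16), -0.12 for Dex in water mice (-0.37 to 0.14), -0.08 for ZnSO4 in Dex mice (-0.34 to 0.17) and -0.10 for Dex in ZnSO4 mice (-0.36 to 0.15), with edgeR adjusted p from 0.612 to 0.743. A change of Il6st beyond about 0.37 on the log2 scale in either direction was thus outside each interval.

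Osmr (chr15:6813577-6874969, minus strand), the chain that pairs with gp130 to bind oncostatin M, had 205, 243 and 162 normalised counts in water + PBS, 144, 165 and 178 in ZnSO4 + PBS, 196, 183 and 173 in water + Dex and 192, 235 and 221 in ZnSO4 + Dex. Its lowest group was ZnSO4 + PBS and its highest ZnSO4 + Dex, and these did not overlap, although each overlapped the water groups. The LFC of Dex was -0.15 (SE 0.15) in water mice and 0.41 (SE 0.15, edgeR adjusted p = 0.095) in ZnSO4 mice, and that of ZnSO4 was -0.33 (SE 0.15) in PBS mice and 0.23 (SE 0.15) in Dex mice. The difference between the effects, the interaction, was 0.56 (SE 0.21), with an unadjusted p of 0.021 in edgeR and an adjusted p of 0.952.

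Stat3 (chr11:100885098-100939540, minus strand), the transcription factor at the centre of this signalling, was among the most abundant of the 10 genes in every group. It had 2218, 2587 and 2120 normalised counts in water + PBS, 1963, 1947 and 1987 in water + Dex, 1836, 1810 and 1765 in ZnSO4 + PBS and 1518, 1087 and 1520 in ZnSO4 + Dex. Each group lay below the one before it in this order, with no overlap between neighbours. Stat3 fell by 30.1% with ZnSO4 in Dex mice (LFC -0.52, SE 0.12, edgeR adjusted p = 0.031), and fell by 23.8% with Dex in ZnSO4 mice (LFC -0.39, SE 0.12, edgeR adjusted p = 0.049). In PBS mice the LFC of ZnSO4 was -0.36 (SE 0.12, edgeR adjusted p = 0.116), in water mice that of Dex was -0.23 (SE 0.12, edgeR adjusted p = 0.279), and the interaction was -0.16 (SE 0.17), so that the larger values under the combination were not shown to differ from those of either treatment alone.

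The calls of Stat3 lay near the threshold and were lost in several fits without 1 library, mostly with little change of the LFC. The ZnSO4 effect in Dex mice was no longer called without any 1 of the 3 water + Dex libraries or without water + PBS replicate 1 (edgeR adjusted p from 0.0547 to 0.111, LFC -0.52 to -0.50). The Dex effect in ZnSO4 mice was no longer called in 10 of the 12 fits without 1 library, with edgeR adjusted p from 0.0504 to 0.131: it was kept only without water + PBS replicate 2 or ZnSO4 + Dex replicate 3, and without ZnSO4 + Dex replicate 2, the library with 1087 normalised counts, its LFC was -0.25 (edgeR adjusted p = 0.0796). In fits of the groups compared alone, both calls were missed (edgeR adjusted p = 0.0841 and 0.125), and the second was missed with the B cell markers as a covariate (edgeR adjusted p = 0.0883). Conversely, without ZnSO4 + Dex replicate 2 the ZnSO4 effect in PBS mice passed the test (LFC -0.36, edgeR adjusted p = 0.0169). That library also differed from the others of its group in its markers. Its epithelial markers summed to 7434 CPM, against 9381 and 10990, and its ileal enterocyte markers to 7387, against 12665 and 15588. Its smooth muscle markers summed to 2642 CPM, the highest of its group (2094 and 1815 in replicates 1 and 3). A part of this make-up in its Stat3 value was not tested.

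Stat5a (chr11:100859351-100885169, plus strand), the neighbour of Stat3 and a mediator of growth hormone, prolactin and interleukin-2 family signals, had 65.2, 144 and 96.9 normalised counts in water + PBS, 84.9, 111 and 74.1 in ZnSO4 + PBS, 125, 114 and 133 in water + Dex and 147, 149 and 113 in ZnSO4 + Dex. Both Dex groups had higher means than both PBS groups, but the wide spread in water + PBS reached across them, so that Dex separated the libraries of the ZnSO4 mice but not those of the water mice. Its LFC for Dex was 0.28 (SE 0.25) in water mice and 0.60 (SE 0.25, edgeR adjusted p = 0.149) in ZnSO4 mice. The latter passed the test in the fits with a marker covariate that were chosen after the data had been seen, with an LFC of 0.79 with the B cell markers (edgeR adjusted p = 0.0486) and 0.98 with the T cell markers (edgeR adjusted p = 0.0115). Of the 31-base stretches of its transcripts, 11.7% also occur in other genes, its paralog Stat5b first, and reads with several positions were not counted. Its last exonic bases and those of Stat3 overlap on opposite strands over about 1% of each gene.

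Socs3 (chr11:117966079-117970047, minus strand) encodes the inhibitor that binds gp130 and JAK kinases and is the best known feedback product of STAT3. It had 963, 745 and 309 normalised counts in water + PBS, 125, 308 and 252 in ZnSO4 + PBS, 177, 138 and 170 in water + Dex and 58.1, 69.2 and 75.8 in ZnSO4 + Dex. Every treated library was below every water + PBS library, though replicate 2 of ZnSO4 + PBS (308) was only just below replicate 3 of water + PBS (309), and the ZnSO4 + Dex libraries were below all others. The mean in ZnSO4 + Dex was 0.101 of that in water + PBS (67.7 ± 8.97 against 672 ± 333, SD, n = 3).

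Socs3 fell by 66.0% with ZnSO4 in PBS mice (LFC -1.56, SE 0.38, edgeR adjusted p = 0.040), and fell by 75.9% with Dex in water mice (LFC -2.06, SE 0.39, edgeR adjusted p = 0.0053). With Dex in ZnSO4 mice it fell by 70.3% (LFC -1.75, SE 0.40, edgeR adjusted p = 0.013). Within Dex mice the LFC of ZnSO4 was -1.26 (SE 0.41, 95% interval -2.15 to -0.36), with no overlap between the groups, but the edgeR adjusted p was 0.114. That last value passed the threshold with DESeq2 (adjusted p = 0.0148), in a fit of these groups alone (edgeR adjusted p = 0.00999) and without water + PBS replicate 3 (edgeR adjusted p = 0.0393).

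The Socs3 call for Dex in water mice held without each of the 12 libraries, whereas the others did not. The ZnSO4 effect in PBS mice was called in 3 of the 12 fits that left out a library (without water + PBS replicate 3, ZnSO4 + PBS replicate 2 or ZnSO4 + Dex replicate 2), and in the other 9 the edgeR adjusted p was 0.0525 to 0.149 with an LFC of -1.63 to -1.19. It was also missed in a fit of the water + PBS and ZnSO4 + PBS libraries alone (edgeR adjusted p = 0.137). The Dex effect in ZnSO4 mice was missed without ZnSO4 + PBS replicate 2 (edgeR adjusted p = 0.0515) and without ZnSO4 + Dex replicate 1 (edgeR adjusted p = 0.0593). The SD of Socs3 in water + PBS was 49.5% of its mean, the widest of the 10 genes in that group.

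Socs1 (chr16:10782240-10785536, minus strand), which inhibits JAK kinases directly and limits interferon gamma signalling most of all, showed the same order of groups at a lower level. It had 136, 138 and 90.3 normalised counts in water + PBS, 39.6, 48.5 and 49.1 in ZnSO4 + PBS, 23.4, 21.6 and 28.1 in water + Dex and 12.4, 7.69 and 28.8 in ZnSO4 + Dex. The first 3 groups did not overlap with each other, and the 2 Dex groups did, since replicate 3 of ZnSO4 + Dex was above all water + Dex libraries. In the ZnSO4 + Dex libraries these values rest on 12, 8 and 27 reads.

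Socs1 fell by 62.3% with ZnSO4 in PBS mice (LFC -1.41, SE 0.32, edgeR adjusted p = 0.032), fell by 79.9% with Dex in water mice (LFC -2.31, SE 0.34, edgeR adjusted p = 0.0012) and fell by 64.5% with Dex in ZnSO4 mice (LFC -1.49, SE 0.36, edgeR adjusted p = 0.018). For ZnSO4 in Dex mice the LFC was -0.59 (SE 0.39, 95% interval -1.44 to 0.26, edgeR adjusted p = 0.454), and it was -1.27 (edgeR adjusted p = 0.0455) without ZnSO4 + Dex replicate 3. The Dex effect in water mice was called without each of the 12 libraries. The ZnSO4 effect in PBS mice was missed without water + PBS replicate 1 or 2, without any 1 of the ZnSO4 + PBS libraries and without water + Dex replicate 1 (edgeR adjusted p from 0.0503 to 0.118). The Dex effect in ZnSO4 mice was missed without ZnSO4 + PBS replicate 3 or ZnSO4 + Dex replicate 1 (edgeR adjusted p of 0.0501 and 0.0784), and in a fit of these groups alone (edgeR adjusted p = 0.0699).

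Because Socs1 and Socs3 had the same order of groups, the sequence before their start sites is shown with the motifs that were searched. RefSeq promoter windows (250 bases before to 50 after the start, GRCm38.p6) were found for 9 of the 10 genes, 11 windows in all. Positions count from the RefSeq start. For Socs3 and Cish this start lies inside the gene span printed here, which is from GENCODE M21. Both strands were searched for the STAT motif TTCNNNGAA, for an interferon regulatory factor (IRF) motif of GAAA, any 2 bases and again GAAA, and for the palindromic glucocorticoid response element of 15 bases. The IRF motif was found in Socs1 alone of the 9 genes, as a pair of overlapping matches from -83 to -68, and is in capitals here, with positions counted backwards from the first transcribed base. The STAT motif, also in capitals, was found in Socs3 at -154 to -146 and in Cish.
Socs1, chr16:10785537-10785786, minus strand, -250 to -1: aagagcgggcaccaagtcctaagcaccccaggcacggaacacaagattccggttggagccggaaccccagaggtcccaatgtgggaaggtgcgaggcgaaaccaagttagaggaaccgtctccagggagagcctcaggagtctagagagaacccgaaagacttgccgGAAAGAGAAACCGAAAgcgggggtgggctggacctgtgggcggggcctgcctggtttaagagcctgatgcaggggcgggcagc
Socs3, chr11:117969467-117969616, minus strand, -250 to -101: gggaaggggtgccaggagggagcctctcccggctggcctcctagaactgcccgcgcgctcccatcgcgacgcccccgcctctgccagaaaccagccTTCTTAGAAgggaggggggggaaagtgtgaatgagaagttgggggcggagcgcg
Of all 32851 windows in the table, 8.3% held the STAT motif, 3.44% the IRF motif and 0.00913% the glucocorticoid response element, of which no window of the 9 genes held a match. With a share this low for the glucocorticoid response element, its absence from these windows carries no information on these genes. A match is a description of these letters only.

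Cish (chr9:107296026-107302784, plus strand) encodes CIS, the SOCS family member induced mainly by STAT5. It had 89.5, 127 and 77.9 normalised counts in water + PBS, 110, 134 and 101 in ZnSO4 + PBS, 46.8, 47.5 and 69.2 in water + Dex and 63.2, 73.0 and 71.6 in ZnSO4 + Dex. All 6 Dex libraries were below all 6 PBS libraries, whatever the drinking water. Cish fell by 44.4% with Dex in water mice (LFC -0.85, SE 0.21, edgeR adjusted p = 0.028) and fell by 39.7% with Dex in ZnSO4 mice (LFC -0.73, SE 0.21, edgeR adjusted p = 0.039). ZnSO4 gave LFCs of 0.23 (SE 0.21) in PBS mice and 0.35 (SE 0.22) in Dex mice, the sign opposite to that of Socs1 and Socs3, and neither passed the test (edgeR adjusted p = 0.594 and 0.436).

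The RefSeq start site of Cish holds a pair of STAT motif matches, at +1 to +9 and +12 to +20 of that transcript. The 30 bases around them are shown because no other of the 9 genes has more than 1 match to this motif.
Cish, chr9:107296654-107296683, plus strand, -5 to +25: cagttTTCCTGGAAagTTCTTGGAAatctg
The Cish calls were the weakest of the Dex calls in water mice. The first was missed without water + PBS replicate 2 or water + Dex replicate 1 or 2 (edgeR adjusted p from 0.103 to 0.105) and in a fit of these groups alone (edgeR adjusted p = 0.0754), and the second without ZnSO4 + PBS replicate 1 or 2 or any 1 of the ZnSO4 + Dex libraries (edgeR adjusted p from 0.0753 to 0.130). With the B cell markers as a covariate, edgeR adjusted p values were 0.0577 and 0.0762. Of the exonic bases of Cish, 11.5% lie opposite Gm17040 and Gm17041, and the strand setting of the authors' counting is not given in the sources used here, so that reads of these genes may be included.

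Socs2 (chr10:95385362-95417180, minus strand), which limits growth hormone signalling, had 757, 840 and 778 normalised counts in water + PBS, 983, 874 and 1024 in ZnSO4 + PBS, 773, 756 and 997 in water + Dex and 831, 840 and 835 in ZnSO4 + Dex. The ZnSO4 + PBS libraries were above the water + PBS libraries without overlap, but the LFC of 0.28 (SE 0.10) did not pass the test (edgeR adjusted p = 0.159). Its other LFCs were 0.09 for Dex in water mice, -0.01 for ZnSO4 in Dex mice and -0.20 for Dex in ZnSO4 mice (edgeR adjusted p from 0.249 to 0.968). Among the 4 members of the SOCS family described here, Socs1 and Socs3 thus fell with both treatments in at least 1 comparison, Cish fell with Dex, and Socs2 was not called.

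**Figure D2:**
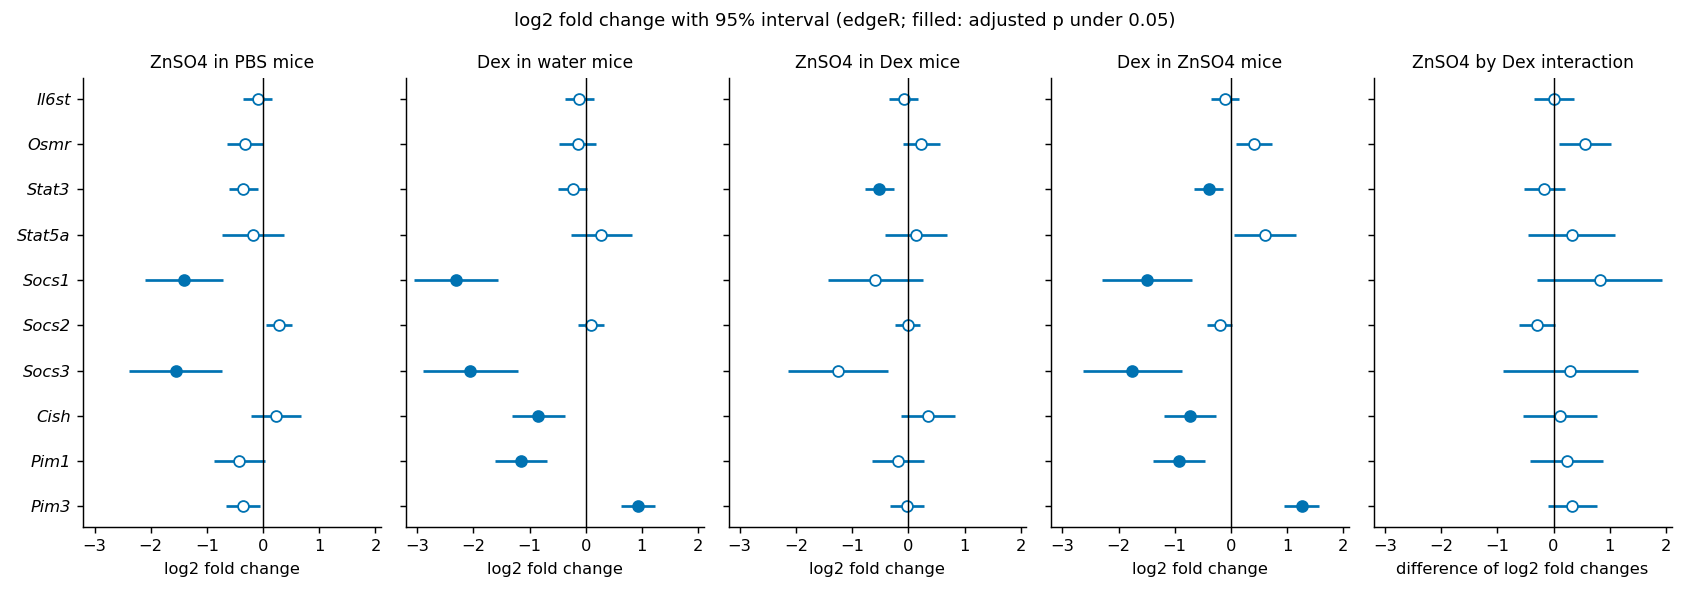
LFC (horizontal axes) of the 10 genes with 95% intervals in the 4 comparisons, and the interaction as a difference of LFCs, from edgeR. Filled points have an adjusted p under 0.05: 2, 5, 1, 6 and 0 genes from left to right.

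Pim1 (chr17:29490753-29496112, plus strand) and Pim3 (chr15:88862186-88865726, plus strand) encode kinases of the same family, which favour cell survival and protein synthesis, and they went in opposite directions with Dex. Pim1 had 571, 607 and 341 normalised counts in water + PBS, 394, 408 and 332 in ZnSO4 + PBS, 262, 214 and 204 in water + Dex and 185, 169 and 246 in ZnSO4 + Dex. Both Dex groups were below both PBS groups without overlap. Pim1 fell by 55.2% with Dex in water mice (LFC -1.16, SE 0.21, edgeR adjusted p = 0.0044) and fell by 47.2% with Dex in ZnSO4 mice (LFC -0.92, SE 0.21, edgeR adjusted p = 0.013).

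Pim3 had 704, 612 and 450 normalised counts in water + PBS, 424, 511 and 446 in ZnSO4 + PBS, 1117, 1066 and 1176 in water + Dex and 1071, 1027 and 1215 in ZnSO4 + Dex. The lowest of the 6 Dex libraries (1027) was above the highest of the 6 PBS libraries (704). Dex raised Pim3 1.90-fold in water mice (LFC 0.93, SE 0.14, edgeR adjusted p = 0.0013) and 2.40-fold in ZnSO4 mice (LFC 1.26, SE 0.14, edgeR adjusted p = 1.3e-04). ZnSO4 itself gave a Pim3 LFC of -0.36 (SE 0.14, edgeR adjusted p = 0.184) in PBS mice, which passed the test without water + PBS replicate 3 (LFC -0.52, edgeR adjusted p = 0.0307), and of -0.02 (95% interval -0.32 to 0.28) in Dex mice.

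For Pim1 the LFC of ZnSO4 was -0.42 (SE 0.21, edgeR adjusted p = 0.286) in PBS mice and -0.18 (SE 0.21, edgeR adjusted p = 0.692) in Dex mice. The Pim3 calls and the Pim1 call in water mice held without each of the 12 libraries. The Pim1 call in ZnSO4 mice was missed without ZnSO4 + Dex replicate 1 or 2 (edgeR adjusted p of 0.0563 and 0.0510). Of the exonic bases of Pim1, 14.5% lie opposite Gm26885, with the same limit of strand as for Cish.

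Because both kinases were read from the same library, their ratio is free of library size. On the FPKM scale, which divides reads by exon length and library size, Pim3 over Pim1 was 1.71, 1.40 and 1.83 in the water + PBS libraries, 1.49, 1.73 and 1.86 in ZnSO4 + PBS, 5.91, 6.91 and 7.97 in water + Dex and 8.04, 8.41 and 6.85 in ZnSO4 + Dex. The lowest ratio with Dex was thus above 3 times the highest without it. The same ratio for Socs3 over Stat3, the inhibitor over the factor that induces it, was 0.480 to 1.43 in water + PBS, 0.225 to 0.560 in ZnSO4 + PBS, 0.234 to 0.298 in water + Dex and 0.126 to 0.210 in ZnSO4 + Dex. Its lowest water + PBS value (replicate 3) lay within the range of ZnSO4 + PBS and above both Dex groups. Both ratios were chosen after the values of the genes had been seen, and no test was made on them.

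**Figure D3:**
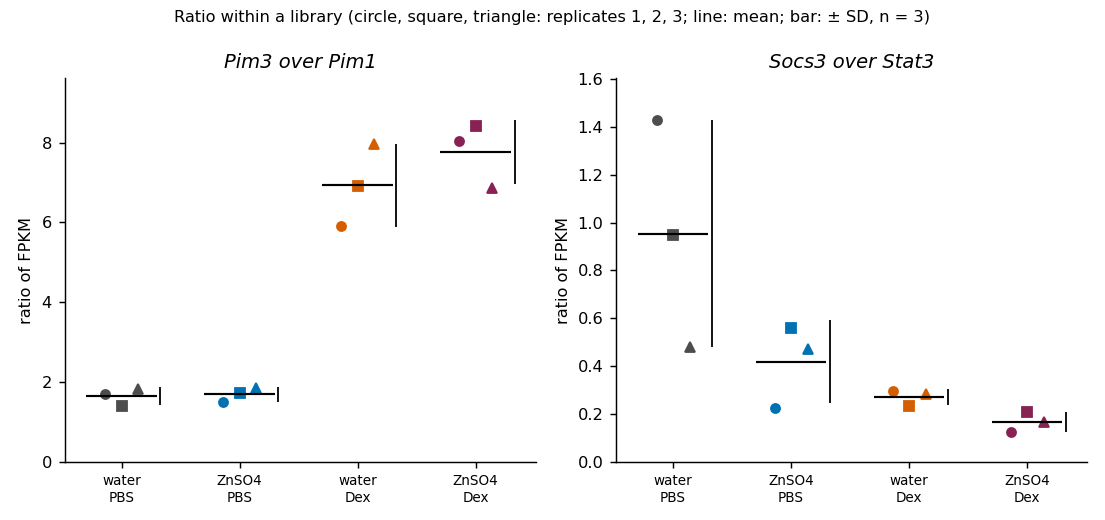
FPKM of Pim3 divided by that of Pim1 (left) and of Socs3 divided by that of Stat3 (right) in each of the 12 libraries (vertical axes from 0), with mean and SD by group. The Pim3 ratio is 1.40 to 1.86 in the PBS libraries and 5.91 to 8.41 in the Dex libraries.

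Per length, Pim3, Stat3 and Socs3 were the most abundant of the 10 genes in water + PBS, at 21.3 ± 4.65, 21.3 ± 2.27 and 20.4 ± 10.1 FPKM (SD, n = 3), and their levels lay within each other's spread. Pim1 (13.2 ± 3.77), Il6st (10.1 ± 1.21) and Socs2 (7.30 ± 0.397) followed, then Socs1 (3.68 ± 0.822), and Osmr (1.48 ± 0.292), Cish (1.35 ± 0.355) and Stat5a (1.26 ± 0.492) could not be told apart by level. In ZnSO4 + Dex, Pim3 stood at 40.0 ± 3.57 FPKM and Stat3 at 12.7 ± 2.30, whereas Socs3, at 2.06 ± 0.273, was sixth and below Il6st (8.78 ± 1.21), Socs2 (7.70 ± 0.0422) and Pim1 (5.22 ± 1.06). Socs1 was last of the 10 in both Dex groups, at 0.737 ± 0.101 FPKM in water + Dex and 0.493 ± 0.335 in ZnSO4 + Dex.

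Some libraries were low or high across the genes. Replicate 3 of water + PBS was the lowest of its group for 8 of the 10 genes (each except Socs2 and Stat5a), while it was the lowest for 31.5% of all tested genes. Replicate 2 of the same group was the highest for 8 of the 10, beside 35.6% of tested genes, and the largest gap was in Socs3 (309 against 745 and 963 normalised counts). Without replicate 3 the number of genes called was 3 for ZnSO4 in PBS mice (Socs1, Socs3 and Pim3), 2 for ZnSO4 in Dex mice (Socs3 and Stat3) and 5 for Dex in each drinking water (Socs1, Socs3, Cish, Pim1 and Pim3). In water + Dex, replicate 2 was the lowest for 7 of the 10 genes, beside 34.8% of tested genes. Replicate 3 of water + Dex was the highest for 7, beside 34.7%.

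No gene of the 10, and 0% of all tested genes, had an edgeR adjusted p under 0.05 for the interaction, and DESeq2 called none either. At an unadjusted p under 0.05, edgeR gave 794 of the 15938 tested genes, Osmr among them. This is about the share that such a threshold passes where no gene has an interaction. The 95% intervals of the interaction were wide for the genes with the largest treatment effects, from -0.29 to 1.92 for Socs1 (estimate 0.82), from -0.90 to 1.51 for Socs3 (0.30), from -0.10 to 0.77 for Pim3 (0.34) and from -0.41 to 0.89 for Pim1 (0.24). Values across these intervals, 0 among them, could not be told apart with 3 libraries a group. Leaving out a library moved the Socs1 interaction between 0.13 and 1.16.

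T cell markers moved with ZnSO4 beside Socs1 and Socs3. Of the 6 markers, 1 (Cd8a) fell by ZnSO4 in PBS mice and 3 (Cd3d, Cd3e and Cd8a) in Dex mice, and none was called by Dex. Of all tested genes, 2.54% fell by ZnSO4 in PBS mice and 2.54% in Dex mice. With the mean log2 CPM of these markers as a covariate, a fit chosen after the data had been seen, the ZnSO4 LFC in PBS mice was -1.34 for Socs1 and -1.46 for Socs3 (edgeR adjusted p = 0.170 and 0.190), and the ZnSO4 LFC of Stat3 in Dex mice was -0.36 (edgeR adjusted p = 0.406). Without the covariate, the LFCs of Socs1 and Socs3 had been -1.41 and -1.56. In the covariate fit the number of all tested genes called by ZnSO4 was 138 in PBS mice and 49 in Dex mice, where it had been 742 and 696. All 6 markers had a negative LFC for ZnSO4 in PBS mice and in Dex mice. The covariate and ZnSO4 therefore cannot be fully told apart in this fit, and a part of T cells in the ZnSO4 effects was not tested. The covariate left 1580 genes called by Dex in water mice, beside 1582 without it, and all 5 calls of the 10 genes there held. By Dex in ZnSO4 mice it left 1755 genes called in place of 2189, and the calls of Cish, Pim1 and Stat3 missed the threshold (edgeR adjusted p = 0.161, 0.0571 and 0.168), whereas Stat5a passed it. With the B cell markers as the covariate, Socs1 and Socs3 were called by ZnSO4 in PBS mice and Stat3 by ZnSO4 in Dex mice. All 6 B cell markers had a negative LFC in each comparison, and none was called. Their median LFC for Dex was -1.62 in water mice and -2.69 in ZnSO4 mice.

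The genes with the most similar pattern were looked up for the 3 genes with the widest range of group means, Socs3, Socs1 and Pim1, by the root mean square difference of centred log2 CPM over the 12 libraries among 14961 genes. For Socs3 these were Batf2 (0.47), Tnf (0.51) and Cxcl10 (0.55), beside a median of 1.23 over all these genes. For Socs1 they were Batf2 (0.45), Bcl3 (0.47) and Tnf (0.52), beside a median of 1.17, and for Pim1 they were Cx3cl1, Junb and Rilpl2 (each 0.20), beside 0.62. Batf2, a transcription factor gene induced by interferon, had a mean of 404 ± 22.6 normalised counts in water + PBS, 187 ± 37.9 in ZnSO4 + PBS, 132 ± 9.16 in water + Dex and 53.1 ± 2.12 in ZnSO4 + Dex. That is the same order as Socs3, which follows from picking Batf2 for its likeness over these libraries and is no separate result. Batf2 did not share the gap within water + PBS, where its libraries lay between 384 and 428. Junb, an AP-1 subunit, did share it, with 1576, 1564 and 901 normalised counts in the order of the replicates.

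For the lists that follow, the shares of all tested genes stand beside the counts. By ZnSO4, 2.54% fell and 2.11% rose in PBS mice, and 2.54% fell and 1.83% rose in Dex mice. By Dex, 4.51% fell and 5.41% rose in water mice, and 7.08% fell and 6.65% rose in ZnSO4 mice. The other SOCS and Pim genes of the pathway, Socs4, Socs5, Socs6, Socs7 and Pim2, were all tested, and none of the 5 was called in any comparison, with LFCs from -0.73 to 0.27. Of 8 JAK kinases and other STAT factors, 1 fell by ZnSO4 in PBS mice and 1 in Dex mice (Stat2 each time), none was called by Dex in water mice, 3 fell by Dex in ZnSO4 mice (Stat2, Stat6 and Tyk2), and none rose. Stat2, a factor of type I interferon signalling, had an LFC of -0.42 (SE 0.10, edgeR adjusted p = 0.038) for ZnSO4 in PBS mice and -0.65 (SE 0.10, edgeR adjusted p = 0.0051) in Dex mice. Of 8 phosphatases and PIAS inhibitors, which restrain JAK and STAT proteins by other routes, Ptpn2 rose with Dex (LFC 0.35 in water mice and 0.44 in ZnSO4 mice) and Pias3, the inhibitor of STAT3, fell (LFC -0.40 and -0.46). None of the 8 was called by ZnSO4. The ZnSO4 LFC of Pias3 was 0.39 (SE 0.11, edgeR adjusted p = 0.073) in PBS mice and 0.33 (SE 0.11, edgeR adjusted p = 0.136) in Dex mice.

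Ligands were mostly below the depth of these libraries. Of 16 cytokine genes, 7 were tested, and those left out had at most 13 reads in any library, Il6, Il11, Osm and Il22 among them, so that the messages of the main STAT3-activating cytokines could not be compared at this depth. Il15 rose by ZnSO4 in PBS mice from 125 ± 7.80 to 212 ± 8.86 normalised counts (LFC 0.76, SE 0.16, edgeR adjusted p = 0.021). Il7 fell with Dex in water mice (LFC -0.65, SE 0.19, edgeR adjusted p = 0.048). Il10, which signals through STAT3 to limit inflammation, rose with Dex in water mice from 3.94 ± 2.66 to 16.4 ± 2.77 normalised counts (edgeR adjusted p = 0.014). By ZnSO4 in Dex mice it fell to 4.82 ± 1.79 normalised counts (edgeR adjusted p = 0.049), and all its values rest on few reads per library. Il10 exceeded 10 normalised counts, near the minimum set for testing, in the water + Dex libraries alone. It was therefore among the tested genes only through the group that both calls contrast. The 2 calls are thus not independent of the choice of genes to test.

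Of 19 further receptor chains, 1 rose (Ghr) and 1 fell (Il2rb) by ZnSO4 in PBS mice, none was called by ZnSO4 in Dex mice, 2 rose by Dex in water mice (Il6ra and Lifr) and 3 in ZnSO4 mice (Il6ra, Lifr and Il7r). Il6ra, the chain that binds interleukin-6 before gp130 joins, had 169.6 ± 30.1 normalised counts in water + PBS, 211 ± 17.4 in ZnSO4 + PBS, 309 ± 33.9 in water + Dex and 381 ± 41.9 in ZnSO4 + Dex. Its LFC for Dex was 0.86 (SE 0.14, edgeR adjusted p = 0.0026) in water mice and 0.85 (SE 0.14, edgeR adjusted p = 0.0019) in ZnSO4 mice. Lifr, the gp130 partner for leukaemia inhibitory factor, had LFCs of 0.48 (edgeR adjusted p = 0.040) and 0.71 (edgeR adjusted p = 0.0038). Both chains rose with Dex while Il6st and Osmr were not called.

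Genes that depend on STAT3 in the gut or in the acute phase response went in several directions. Of 15 tested, 5 fell by ZnSO4 in PBS mice (Reg3b, Reg3g, Saa1, Saa2 and Fut2), 6 in Dex mice (the same 5 and Lcn2), and none rose. By Dex, Bcl2l1 and Lcn2 rose in both water and ZnSO4 mice, Bcl3 and Myc fell in both, and Junb fell in water mice. Saa1, an acute phase protein gene, had 3416 ± 1339.6 normalised counts in water + PBS, 88.7 ± 61.0 in ZnSO4 + PBS, 3855 ± 776 in water + Dex and 188 ± 70.2 in ZnSO4 + Dex. Lcn2, a siderophore-binding protein gene, had LFCs of 4.90 (SE 0.24) and 4.98 (SE 0.25) for Dex in water and ZnSO4 mice (edgeR adjusted p = 5.2e-07 and 5.6e-07), and Bcl3, a cofactor of NF-kB, of -2.31 (SE 0.22) and -2.12 (SE 0.23). The median LFC of the 15 was -0.86 for ZnSO4 in PBS mice, 0.06 for Dex in water mice, -0.59 for ZnSO4 in Dex mice and 0.43 for Dex in ZnSO4 mice. Reg3b, Reg3g, Saa2, Fut2, Myc and Junb were named after their values were seen.

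Of 10 markers of the response to interferon gamma, a signal that SOCS1 restrains, 8 fell by ZnSO4 in PBS mice, 5 by Dex in water mice, 5 by ZnSO4 in Dex mice and 4 by Dex in ZnSO4 mice, and none rose. Of all tested genes, 2.54%, 4.51%, 2.54% and 7.08% fell in these comparisons. The markers, like the other lists, were chosen with earlier results of these data known. Their counts are thus a description and not independent support. Irf1, a transcription factor gene induced by interferon gamma, had 3069 ± 459.6 normalised counts in water + PBS, 1758 ± 94.4 in ZnSO4 + PBS, 1358 ± 61.2 in water + Dex and 877 ± 39.5 in ZnSO4 + Dex, and fell in all 4 comparisons (LFC from -1.18 to -0.63, edgeR adjusted p from 2.2e-05 to 0.0055). Cxcl10, a chemokine gene, fell by Dex in water mice with an LFC of -3.47 (SE 0.35, edgeR adjusted p = 7.0e-05). The median LFC of the 10 markers was -1.13, -0.68, -0.91 and -0.55 in the order ZnSO4 in PBS mice, Dex in water mice, ZnSO4 in Dex mice and Dex in ZnSO4 mice.

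**Figure D4:**
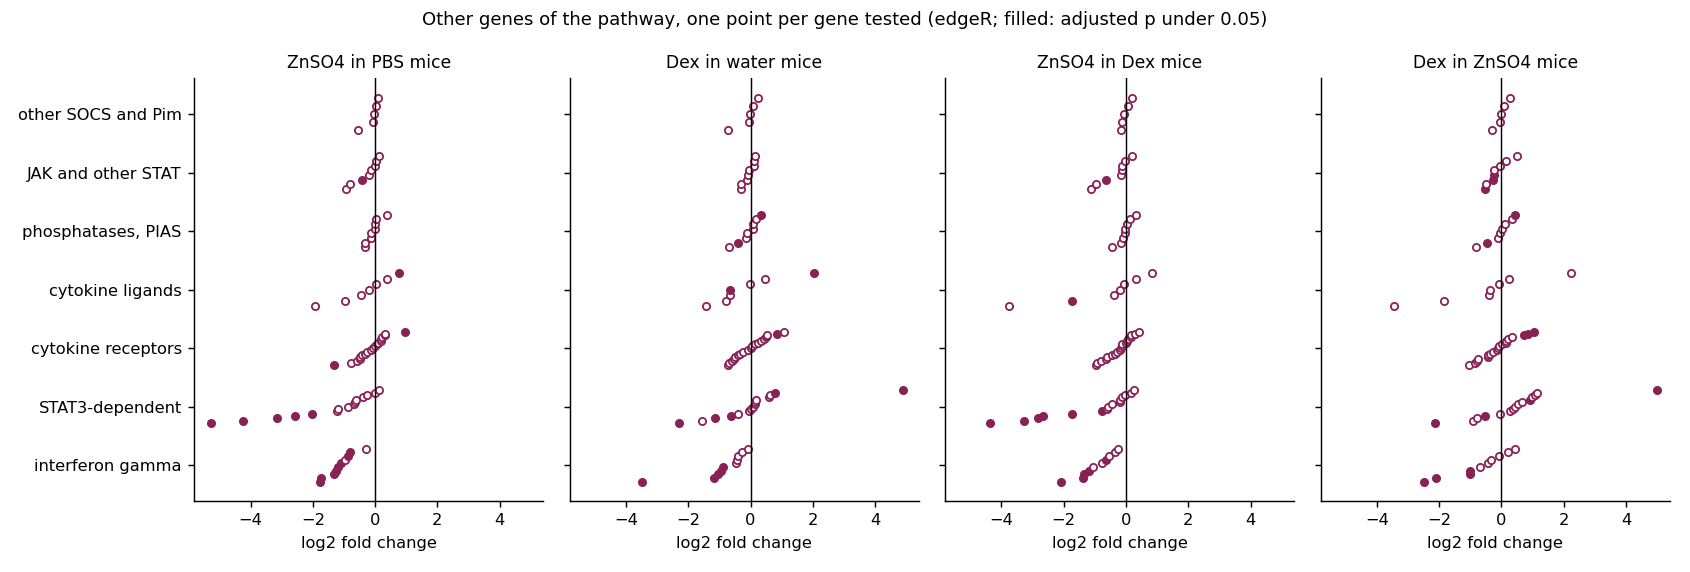
LFC (horizontal axes) of the other pathway genes by list, 1 point per tested gene, in the 4 comparisons. Filled points have an edgeR adjusted p under 0.05: the filled points of the interferon gamma markers lie left of 0 in each panel, STAT3-dependent genes are filled on the left with ZnSO4 and on both sides with Dex, and the other SOCS and Pim genes have no filled point.

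Across the 14 calls made on the 10 genes, 5 held without each of the 12 libraries: Socs1, Socs3, Pim1 and Pim3 by Dex in water mice and Pim3 by Dex in ZnSO4 mice. The remaining 9 were each missed without at least 1 library, and the sign of none of the 14 changed in any fit.

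**Figure D5:**
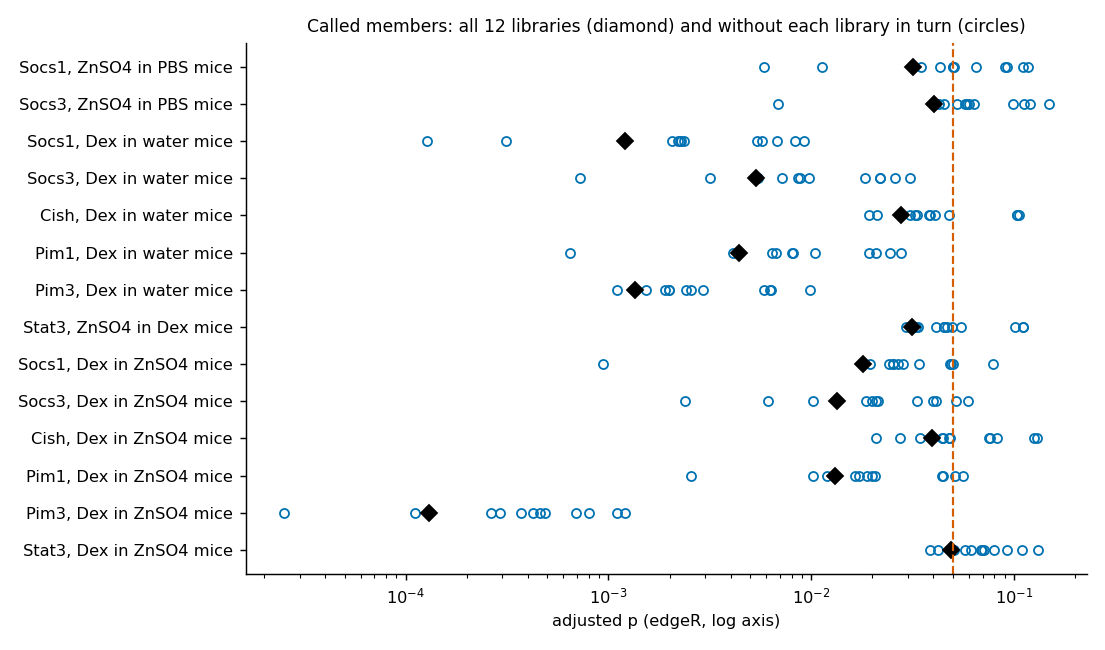
edgeR adjusted p (horizontal log axis) of the 14 calls with all 12 libraries (diamonds) and without each library in turn (circles), with 0.05 as a dashed line. For 5 calls every circle lies left of the line, and for Stat3 by Dex in ZnSO4 mice 10 of the 12 circles lie right of it.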

How the data were processed

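RNA sequencing of 12 ileum libraries was used, and groups followed the sample labels. The authors mapped single-end reads of stranded libraries to mm10 with HISAT2 2.0.4 (name, version and build per the submitters' processing notes), and deposited raw counts per gene from featureCounts, without reads of several positions. Read trimming with Trimmomatic is also named there. The annotation release and the strand setting are not given in the sources used here. Symbols and positions came from GENCODE M21, which matched 54809 of the 54838 identifiers. In R 4.3.3, edgeR 4.0.16 (filterByExpr by group, minimum count 10, TMM, glmQLFit, glmQLFTest) fitted 4 group means. 95% intervals use the moderated degrees of freedom. FPKM was computed from exonic bases, and log2 CPM with a prior count of 2. An exact permutation test of 3 against 3 cannot give a p below 0.1, so single genes rest on this model. The procedure was tested on simulated data. Alternatives were DESeq2 1.42.0, RLE factors, no filter on low counts, the replicate number as a block, fits of the groups compared, an LFC cut-off of 0.8, each library left out, and, chosen after seeing the data, B cell and T cell marker covariates. All members were named. Of each other list, at most the 4 called genes with the smallest adjusted p were described with their values, and others were named with counts. The members and lists were chosen with earlier results of these data known. One gene of the JAK and STAT list is not reported here.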

Additional observations from a re-analysis of the deposited data

How the results depend on the processing

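With 3 libraries a group and at most 11827487 reads a library, changes of the lowly counted genes (Socs1 in Dex mice, the interleukins) and differences between treatment effects had wide intervals. Dex in water mice kept 4 to 5 called genes in all fits. For ZnSO4 in PBS mice the count of 2 became 0 with the replicate block, 1 with only the groups compared, 0 with the T cell marker covariate, and 0 to 3 without 1 library. For ZnSO4 in Dex mice the count of 1 became 2 with DESeq2, 0 with the replicate block, 0 with an LFC cut-off of 0.8, 0 with the T cell marker covariate, and 0 to 2 without 1 library. For Dex in ZnSO4 mice the count of 6 was 4 with only the groups compared (without Socs1 and Stat3), 4 with the cut-off of 0.8, 4 with the T cell and 5 with the B cell marker covariate (Stat5a among them in both), and 1 to 6 without 1 library. The cut-off of 0.8 left 271, 705, 303 and 926 of all tested genes called, in place of 742, 1582, 696 and 2189. The replicate numbers did not pair the libraries: deviations from the group means had a median correlation of -0.0557 over 18 same-numbered pairs and 0.0225 over 36 others. With the replicate block, edgeR adjusted p was 0.0524 for Socs1 and 0.0796 for Socs3 (ZnSO4 in PBS mice), 0.0605 for Stat3 by ZnSO4 in Dex mice and 0.0808 for Stat3 by Dex in ZnSO4 mice, and the block changed no other call. The last also missed the threshold with RLE factors (edgeR adjusted p = 0.0513).

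Signs changed 23 times, always for fold changes that were not called, and the cause was not tested. Over the 12 fits without 1 library, the LFC ranges that crossed 0 were -0.405 to 0.149 for Stat5a and -0.175 to 3.736e-05 for Il6st (ZnSO4 in PBS mice), -0.0571 to 0.149 for Socs2 (Dex in water mice), -0.0761 to 0.130 for Socs2, -0.0956 to 0.0294 for Pim3 and -0.165 to 0.0214 for Il6st (ZnSO4 in Dex mice), and -0.183 to 0.00332 for Il6st (Dex in ZnSO4 mice). Those of the interaction were -0.0644 to 0.646 for Socs3, -0.114 to 0.315 for Cish, -0.0129 to 0.545 for Stat5a and -0.0868 to 0.118 for Il6st. The Il6st interaction was also -0.00447 with DESeq2, -0.00291 with RLE factors and -0.00225 with all genes with at least 1 count. With the T cell marker covariate, LFCs were 0.40 for Stat5a (ZnSO4 in PBS mice) and 0.157 for Pim1 and 0.0589 for Pim3 (ZnSO4 in Dex mice).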

Other observations

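Some marker genes of the cells in the ileum changed as well. Cdx2, a transcription factor of the intestinal epithelium, fell with Dex from 2522 ± 221 to 1426 ± 39.0 normalised counts in water mice (SD, n = 3, LFC -0.82, SE 0.09, edgeR adjusted p = 1.2e-04), and Kdr, a receptor of endothelial cells, fell from 341 ± 12.3 to 175 ± 24.3 (LFC -0.96, SE 0.12, edgeR adjusted p = 3.7e-04). The other 5 of the 6 epithelial markers had a positive LFC for Dex in water mice, and none of these was called. Of the 4 endothelial markers, 3 had a negative LFC there, and Kdr alone was called. Emcn had a positive LFC of 0.54 (SE 0.19, edgeR adjusted p = 0.098). Slc10a2, the ileal bile acid transporter, rose with Dex in water mice (LFC 0.92, SE 0.23, edgeR adjusted p = 0.024). Itgam, an integrin of macrophages and other myeloid cells, fell by ZnSO4 in PBS mice (LFC -0.82, SE 0.16, edgeR adjusted p = 0.017) and in Dex mice (LFC -1.05, SE 0.16, edgeR adjusted p = 0.0046), where the other 5 macrophage markers were not called. C1qa and C1qb rose with Dex in ZnSO4 mice (LFC 0.43 and 0.38, edgeR adjusted p = 0.034 and 0.047). No marker of smooth muscle (5) or of fibroblasts (5) was called in any comparison, and these markers had been tested in full. Among all tested genes, 1.83% to 6.65% rose and 2.54% to 7.08% fell in these comparisons. A lack of calls among 5 markers thus does not show that the share of these cells was stable. All 5 smooth muscle markers had a positive LFC throughout. Their medians were 0.35 and 0.37 for ZnSO4 (PBS and Dex mice) and 0.13 and 0.18 for Dex (water and ZnSO4 mice). For fibroblasts, 4 and 5 markers were positive for ZnSO4, and 1 and 3 for Dex, in the same order.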
